A study of Mus musculus with 24 samples.

Results

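The AP-1 and BATF family genes were followed by mRNA sequencing in splenic CD4+ T cells through the first day of stimulation. The family was taken as 10 genes, Fos, Fosb, Fosl1, Fosl2, Jun, Junb, Jund, Batf, Batf3 and Atf3. They were chosen by gene symbol, though with earlier results of these data known. All 10 were found among the 54446 gene identifiers of the count table. The cells came from 6 mice on the C57BL6 background, 3 wild type (WT, mice 1, 3 and 4) and 3 deficient in Aim2 (Aim2-/-, mice 1, 2 and 4), and each mouse gave a library at 0, 3, 6 and 24 h of stimulation with anti-CD3/CD28 in culture medium RP10. The number that the labels carry within a genotype was taken as the mouse. Antibodies to CD3 and CD28 engage the T cell receptor and its costimulatory partner. The age of the mice is not given in the sources used here, and the methods of the study describe animals matched for sex and age. The labels name CD4+ T cells from spleen with no sort into subsets, and the general methods of the study, which do not describe this time course by itself, enrich them by negative immunomagnetic selection. No unstimulated library stands at 3, 6 or 24 h, and stimulation and time in culture therefore cannot be told apart in the changes from 0 h.

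AP-1 is a dimer of basic leucine zipper (bZIP) proteins in which a Jun protein pairs with another Jun protein, with a Fos protein or with an ATF or BATF protein. In T cells the antigen receptor raises AP-1 through the MAP kinases, and together with NFAT it acts at the promoters of cytokine genes such as Il2. BATF and BATF3 lack the activation domain of Fos, pair with Jun proteins and bind composite sites together with IRF4 or IRF8. Fos and Jun are textbook immediate early genes, whose transcription starts without new protein synthesis, and which also respond to handling of tissue and cells.

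Fos, Jun and Batf stand for the 3 groups of the family, with Fos lower, Jun lower after a rise at 3 h and Batf higher at 24 h than at 0 h, and their promoters hold the motifs named here. They are shown with the sequence just upstream of their transcription start. The sequences were taken from RefSeq on GRCm38.p6, are written 5′ to 3′ on the strand of the gene and stop before the first annotated exon. For Batf this leaves out the last 51 bases before the RefSeq start, from which the distances below are counted. Capitals mark the letters of a motif of the cyclic AMP and AP-1 type, either TGACGT, the core of the ATF site, or TGACATCA, the letters known from the Jun promoter.
Fos, chr12:85473640-85473889, plus strand: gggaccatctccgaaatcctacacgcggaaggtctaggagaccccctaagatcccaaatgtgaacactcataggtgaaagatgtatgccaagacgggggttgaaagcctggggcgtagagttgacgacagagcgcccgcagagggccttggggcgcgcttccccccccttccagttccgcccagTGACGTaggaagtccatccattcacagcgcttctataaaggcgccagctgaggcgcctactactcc
Jun, chr4:95052223-95052472, minus strand: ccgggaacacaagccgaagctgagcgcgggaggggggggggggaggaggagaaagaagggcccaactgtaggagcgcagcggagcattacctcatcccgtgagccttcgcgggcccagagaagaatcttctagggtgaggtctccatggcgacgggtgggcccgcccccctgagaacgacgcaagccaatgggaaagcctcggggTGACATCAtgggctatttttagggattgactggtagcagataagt
Batf, chr12:85686470-85686668, plus strand: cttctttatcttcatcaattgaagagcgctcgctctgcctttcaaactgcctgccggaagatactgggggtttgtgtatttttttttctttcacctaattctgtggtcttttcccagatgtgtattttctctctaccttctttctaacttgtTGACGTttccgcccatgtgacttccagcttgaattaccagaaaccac
RefSeq promoters, reaching from 250 bases before to 50 bases after the start, were matched for 9 of the 10 genes, and Fosl1 had no entry. The motif TGACGT was found 66 bases before the start of Fos, 98 bases before that of Batf and, on the opposite strand, 8 bases from the start of Atf3, hence in 3 of 9 promoters against 7.51% of 32851 promoters of the same length. TGACATCA was found in the Jun promoter 45 bases before the start and in 3.62% of all promoters. The full sites TGACTCA, held by 5.2% of all promoters, and TGACGTCA, which contains TGACGT and was held by 1.79%, occurred in 0 of the 9. Both strands were searched, and these matches describe letters in a window and not bound sites.

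Library totals lay between 19715161 and 21627018 counts, and 3 counts corresponded to 0.139 to 0.152 counts per 1000000 counts (CPM) before scaling. The unit of all levels here is CPM scaled with TMM factors, in which 3 counts can lie slightly outside that range. CPM is relative to the total of a library, and in a mixed population fewer cells of a type and less RNA per cell cannot be told apart. Summed CPM of 5 CD4+ T cell markers (Cd3e, Cd3d, Cd3g, Cd4 and Trac) lay between 2160 and 3450 in all libraries. The mouse labelled WT 1 went against its label: its Aim2 level was close to that of the Aim2-/- mice at all 4 times, with 21.5 CPM at 0 h, against 75.0 and 67.5 CPM in the other WT mice and 15.7, 20.1 and 19.0 CPM in the Aim2-/- mice. Differences of single members between the genotypes at 0, 6 and 24 h are therefore given with and without that mouse, while median differences, marker genes and gene lists are given with it only. Reads of Junb, Fosl1, Jun, Jund and Atf3 could be shared with overlapping genes on the opposite strand, since it is not stated whether counting used the strand. The largest such neighbour by counts was Prdx2 beside Junb, with 1150 to 4690 counts per library.

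Genes were compared with edgeR's quasi-likelihood F test over all 24 libraries, and a gene is called where its p, adjusted after Benjamini and Hochberg over 15325 genes tested, is under 0.05. All 10 genes passed the filter on low counts. Batf3 passed it through stimulated libraries, as it had 2 to 11 counts in each 0 h library, so its calls against 0 h are in the counts but are read from a fit with no filter. Its calls from 6 to 24 h held in all 15 alternatives in both genotypes, among them the fit with no filter. In WT cells, 7 of the 10 were called at 3 h against 0 h, 8 at 6 h and 10 at 24 h, where 32.6%, 51.1% and 71.4% of all genes were called. Of these, 4, 4 and 5 genes were higher (16.2%, 26.4% and 36.6% of all genes) and 3, 4 and 5 lower (16.4%, 24.8% and 34.8%). Among Aim2-/- libraries, 7, 8 and 10 of the 10 were called at these times (30.7%, 51.2% and 70.3% of all genes). There, 3, 4 and 5 were higher (16.1%, 28.5% and 36.8%) and 4, 4 and 5 lower (14.6%, 22.7% and 33.5%). Fitted log2 fold changes are given ± 1 SE where an error is shown. At 24 h the same genes had moved the same way in both genotypes: Fosl1, Jund, Batf, Batf3 and Atf3 were higher than at 0 h, and Fos, Fosb, Fosl2, Jun and Junb were lower. These calls held in all 15 alternative fits at 24 h. The 10 genes had a median absolute log2 fold change of 0.91, 1.47 and 2.7 at 3, 6 and 24 h in WT cells, against 0.364, 0.553 and 1.03 over all genes tested. In Aim2-/- cells it was 0.989, 1.53 and 3.07, against 0.344, 0.543 and 0.947.

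**Figure D1:**
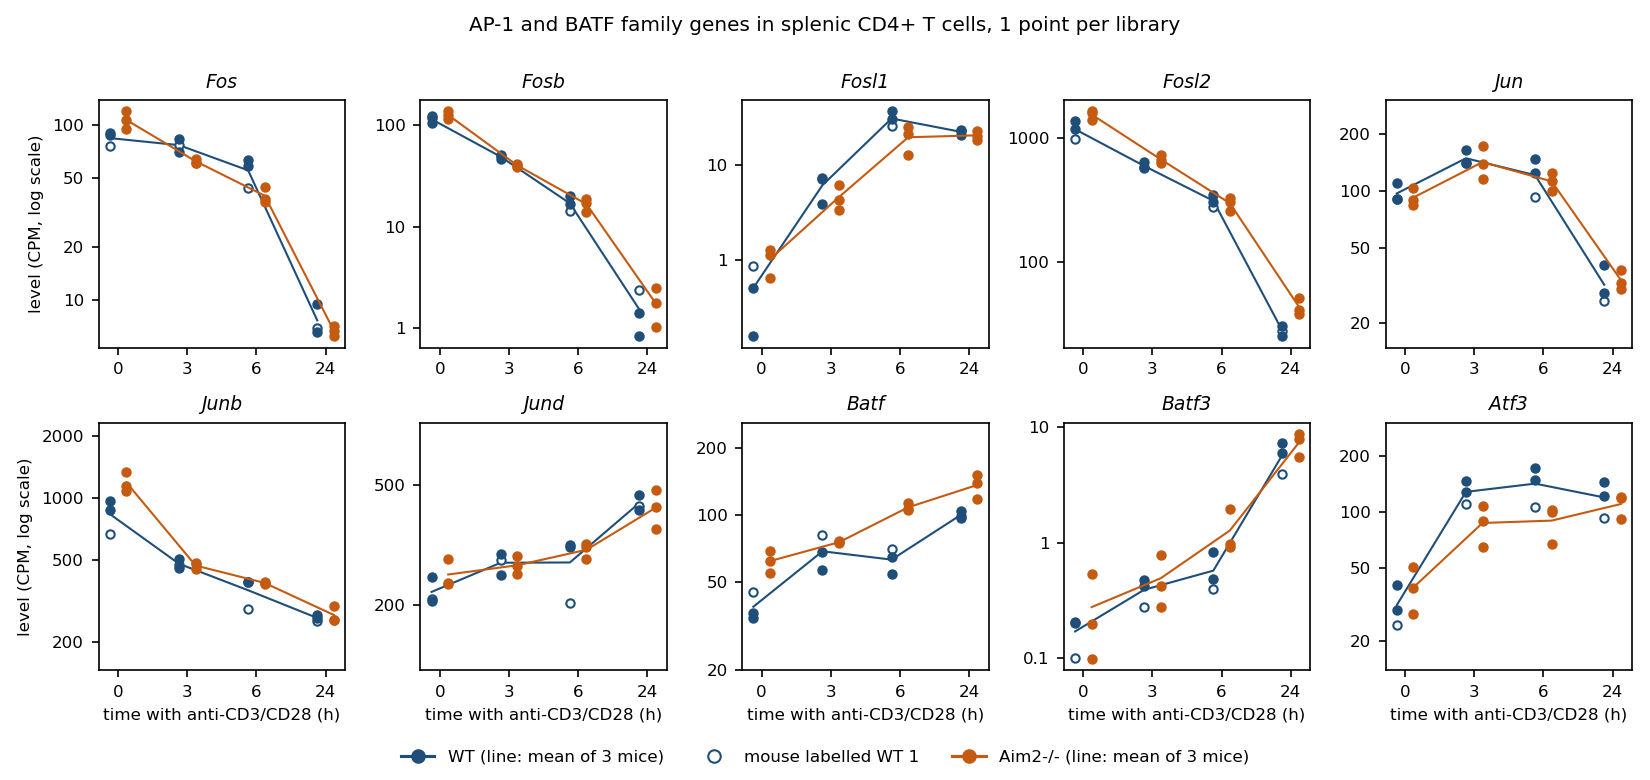
Level of each gene in CPM (log axis) at 0, 3, 6 and 24 h, with 1 point per library, lines through the means of 3 mice, and open circles for the mouse labelled WT 1; the time points are equally spaced. Fos, Fosb and Fosl2 run downwards, Fosl1, Batf3 and Jund end above their 0 h level, and Jun peaks at 3 h before it falls.

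The 4 Fos genes split into 3 that were already abundant at 0 h and fell, and Fosl1, which was near the floor and rose. Fos, the archetype of the group and partner of the Jun proteins, stood at 75.7, 90.0 and 87.8 CPM in WT mice 1, 3 and 4 at 0 h, at 76.7, 83.8 and 70.5 CPM at 3 h, at 43.8, 63.3 and 58.6 CPM at 6 h, and at 6.89, 9.51 and 6.52 CPM at 24 h. In Aim2-/- mice 1, 2 and 4 it stood at 120.2, 94.98 and 106.7 CPM at 0 h, at 61.1, 64.5 and 61.2 CPM at 3 h, at 36.55, 44.2 and 37.8 CPM at 6 h, and at 7.14, 6.20 and 6.67 CPM at 24 h. WT libraries of 0 and 3 h overlapped, and those of 6 and 24 h lay below both, whereas the Aim2-/- libraries were lower at each later time with no overlap. The log2 fold change against 0 h in WT cells was -0.13 ± 0.13 at 3 h (adjusted p = 0.486), -0.61 ± 0.13 at 6 h (adjusted p = 0.00058) and -3.47 ± 0.15 at 24 h (adjusted p = 7.77e-14). The same changes in Aim2-/- cells were -0.78 ± 0.13 at 3 h (adjusted p = 0.000134), -1.44 ± 0.14 at 6 h (adjusted p = 3.16e-08) and -4.01 ± 0.16 at 24 h (adjusted p = 3.12e-14). At 24 h Fos was 11.05-fold lower than at 0 h in WT and 16.1-fold lower in Aim2-/- cells. On the log2 scale most of the fall came after 6 h, the longest interval, with log2 fold changes from 6 to 24 h of -2.85 (adjusted p = 6.91e-12) and -2.57 (adjusted p = 6.88e-11). In CPM the Aim2-/- mean fell more before 6 h, from 107.3 to 39.5, than after it, to 6.67.

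Fosb, a close relative of Fos, and Fosl2, which encodes Fra-2, a Fos protein without the strong activation domain of Fos, fell at every step. Fosb lay between 104.9 and 122.6 CPM in WT and between 115.3 and 137.8 CPM in Aim2-/- libraries at 0 h, and between 0.821 and 2.50 CPM in all 6 libraries at 24 h. Its log2 fold change in WT cells was -1.23 at 3 h (adjusted p = 3.13e-05), -2.76 at 6 h (adjusted p = 5.93e-10) and -6.23 at 24 h (adjusted p = 3.33e-14), and in Aim2-/- cells -1.66, -2.93 and -6.17. The 24 h level was thus 74.9-fold and 72.1-fold below that of 0 h, the steepest decline of the 10 genes in each genotype. Fosl2 stood at 981, 1191 and 1388 CPM in WT mice at 0 h, at 573, 638 and 582 CPM at 3 h, at 279, 305 and 350.1 CPM at 6 h, and at 27.4, 24.7 and 29.8 CPM at 24 h. In Aim2-/- mice Fosl2 stood at 1658, 1607 and 1423 CPM, at 631, 726 and 669 CPM, at 303, 331 and 258 CPM, and at 50.7, 37.4 and 40.1 CPM at the same times. The 4 times did not overlap in either genotype, and each later time was lower. At 24 h the log2 fold change was -5.44 ± 0.16 in WT (adjusted p = 6.97e-16) and -5.19 in Aim2-/- cells (adjusted p = 1.11e-15), or 43.4-fold and 36.55-fold lower.

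Fosl1, which encodes Fra-1, another Fos protein that lacks the activation domain, was the one gene of the Fos group that rose. Its 0 h libraries held 17, 3 and 10 counts in WT and 26, 13 and 23 counts in Aim2-/- mice, or 0.504 ± 0.348 and 1.01 ± 0.327 CPM (SD, n = 3). WT mice then stood at 7.18, 7.41 and 3.92 CPM at 3 h, at 26.2, 37.3 and 30.6 CPM at 6 h, and at 23.8, 20.97 and 23.2 CPM at 24 h. Aim2-/- mice stood at 3.40, 4.26 and 6.22 CPM, at 12.9, 25.3 and 21.3 CPM, and at 23.3, 20.4 and 18.7 CPM. All stimulated libraries lay above all 0 h libraries, and the WT mice were highest at 6 h. Summed over the mice of a group, the ratio to 0 h was 12.1 at 3 h (95% counting interval 8.38 to 18.2), 61.4 at 6 h (42.9 to 91.2) and 44.6 at 24 h (31.1 to 66.4) in WT cells. Aim2-/- cells gave 4.53 (3.44 to 6.05), 19.5 (15.1 to 25.5) and 20.6 (16.0 to 27.0). These intervals cover counting error only, and the ratios rest on few counts at 0 h. The fitted log2 fold changes were 3.59 ± 0.40 at 3 h (adjusted p = 7.29e-07), 5.93 at 6 h (adjusted p = 2.75e-10) and 5.47 at 24 h (adjusted p = 9.51e-11) in WT, and 2.18 (adjusted p = 0.000108), 4.28 (adjusted p = 8.53e-09) and 4.36 (adjusted p = 9.7e-10) in Aim2-/- cells.

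The 3 Jun genes took 3 different courses. Jun, a target of the JNK kinases, lay between 83.8 and 109.9 CPM in the 6 libraries of 0 h, between 115.6 and 171.5 CPM at 3 h, between 92.8 and 146.8 CPM at 6 h, and between 26.1 and 40.7 CPM at 24 h. The 3 h libraries lay above, and the 24 h libraries below, all libraries of 0 h, while those of 6 h overlapped the libraries of 0 and of 3 h. The log2 fold change in WT cells was 0.62 ± 0.17 at 3 h (adjusted p = 0.00833), 0.32 at 6 h (adjusted p = 0.127) and -1.60 ± 0.18 at 24 h (adjusted p = 6.63e-08). In Aim2-/- cells it was 0.62 at 3 h (adjusted p = 0.00884), 0.28 at 6 h (adjusted p = 0.18) and -1.45 at 24 h (adjusted p = 3.17e-07). The rise at 3 h was not called without mouse 3 in WT cells (log2 0.59, adjusted p = 0.0862), nor without mouse 2 (0.40, adjusted p = 0.172) or mouse 4 (0.62, adjusted p = 0.0809) in Aim2-/- cells. With each mouse as a block, the WT difference at 6 h was called at 0.31 (adjusted p = 0.0419).

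Junb, whose product is a partner of BATF in helper T cells, fell. It stood at 667, 874 and 970.0 CPM in WT mice at 0 h, at 475, 506 and 457 CPM at 3 h, at 289, 389.8 and 389.6 CPM at 6 h, and at 253, 261 and 269 CPM at 24 h. The Aim2-/- mice stood at 1342, 1082 and 1150.0 CPM, at 450.2, 478 and 481.5 CPM, at 382, 387.5 and 390.5 CPM, and at 256, 255 and 299 CPM. The WT and the Aim2-/- libraries were lower at each later time with no overlap, and the genotypes overlapped at 24 h after ranges at 0 h that lay apart. Its log2 fold change in WT cells was -0.80 ± 0.12 at 3 h (adjusted p = 3.46e-05), -1.23 at 6 h (adjusted p = 5.26e-08) and -1.68 at 24 h (adjusted p = 1.46e-10), and in Aim2-/- cells -1.34 (adjusted p = 1.29e-07), -1.62 (adjusted p = 2.81e-09) and -2.14 (adjusted p = 7.08e-12). Jund, the Jun gene known for steady expression in resting cells, was the only Jun gene higher at 24 h than at 0 h. It lay between 207.4 and 285.3 CPM at 0 h, between 250.9 and 295.2 CPM at 3 h, between 204.2 and 317.6 CPM at 6 h, and between 357 and 479.7 CPM at 24 h. Taken over both genotypes, libraries of 0, 3 and 6 h overlapped, and those of 24 h lay above them all. Within WT, the 3 h libraries (250.9 to 295.2 CPM) lay above those of 0 h (207.4 to 247.5 CPM) without overlap. At 24 h its log2 fold change was 0.97 ± 0.14 in WT (adjusted p = 2.27e-06) and 0.73 in Aim2-/- cells (adjusted p = 8.09e-05). At 3 and 6 h it was 0.32 and 0.32 in WT cells (adjusted p = 0.0833 and 0.0569), called with each mouse as a block (0.33 and 0.31, adjusted p = 0.0327 and 0.0305) and at 6 h also without WT 1 (0.46, adjusted p = 0.0131), and 0.10 and 0.27 in Aim2-/- cells (adjusted p = 0.634 and 0.108).

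**Figure D2:**
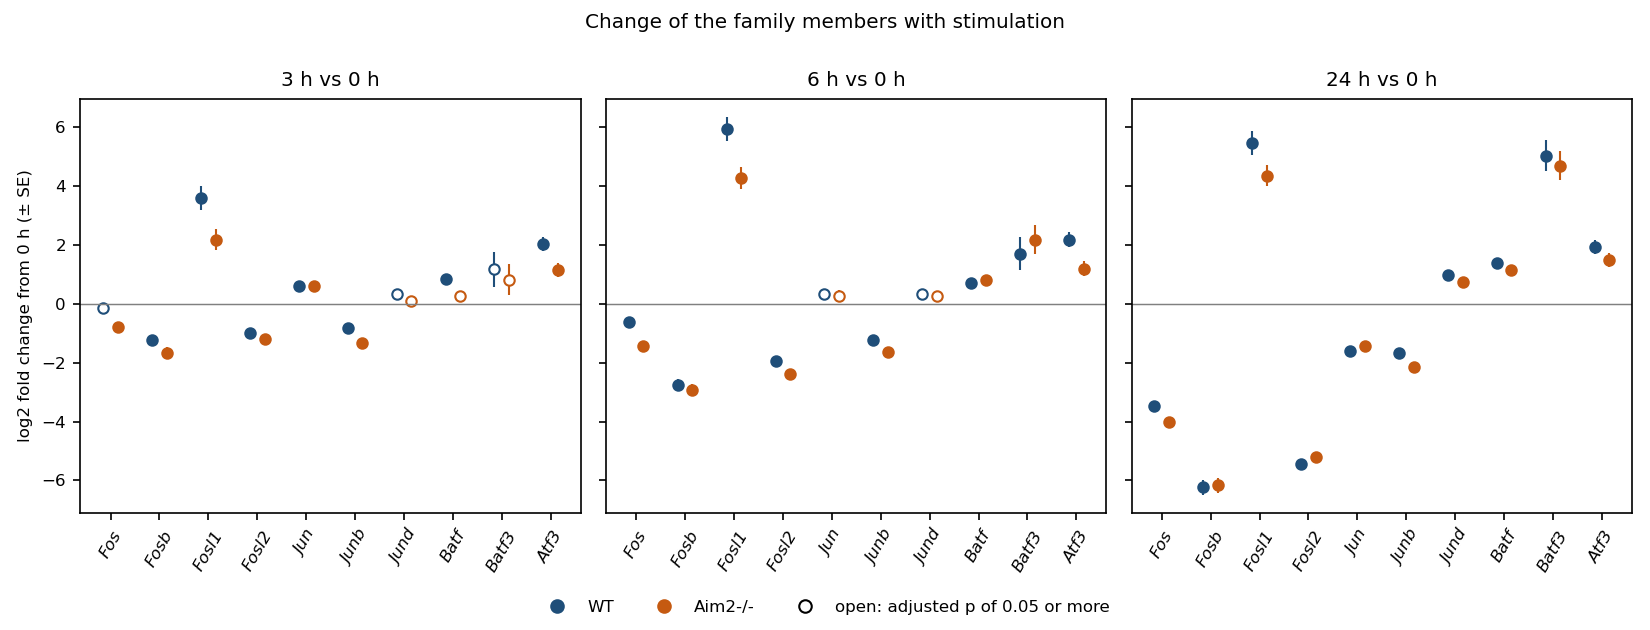
Log2 fold change against 0 h of the same genotype at 3, 6 and 24 h for each of the 10 genes, as the fitted value with bars of 1 SE, for WT and Aim2-/- cells; open symbols have an adjusted p of 0.05 or more. At 24 h all symbols are filled, from -6.23 for Fosb to 5.47 for Fosl1 in WT cells.

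Batf, Batf3 and Atf3 all ended above their 0 h level. Batf, needed for Th17 and follicular helper T cells in mice, stood at 44.9, 34.4 and 36.3 CPM in WT mice 1, 3 and 4 at 0 h, at 81.1, 56.5 and 67.9 CPM at 3 h, at 69.9, 53.9 and 64.6 CPM at 6 h, and at 98.75, 96.5 and 104.2 CPM at 24 h. In Aim2-/- mice it stood at 68.8, 54.6 and 62.2 CPM at 0 h, at 76.1, 74.3 and 75.4 CPM at 3 h, at 105.7, 105.1 and 113.3 CPM at 6 h, and at 150.9, 118.3 and 139.5 CPM at 24 h. The WT libraries of 3 and 6 h overlapped and lay between those of 0 and of 24 h, and the Aim2-/- libraries were higher at each later time with no overlap between times. The log2 fold change in WT cells was 0.83 ± 0.13 at 3 h (adjusted p = 3.63e-05), 0.70 at 6 h (adjusted p = 9.05e-05) and 1.37 ± 0.13 at 24 h (adjusted p = 4.7e-09). Aim2-/- cells gave 0.28 ± 0.13 at 3 h (adjusted p = 0.0982), 0.80 at 6 h (adjusted p = 1.93e-05) and 1.14 at 24 h (adjusted p = 7.42e-08). With each mouse as a block the 3 h difference in Aim2-/- cells was called at 0.29 (adjusted p = 0.0103).

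Batf3, a relative of Batf best known from a class of dendritic cells, came up late and from very few counts. At 0 h it had 2, 4 and 4 counts in WT and 11, 4 and 2 counts in Aim2-/- mice, or 0.170 ± 0.0605 and 0.276 ± 0.228 CPM (SD, n = 3), close to the 3-count floor. At 24 h WT mice stood at 3.90, 6.01 and 7.34 CPM and Aim2-/- mice at 7.83, 5.54 and 8.72 CPM, and all of these lay above every library of 0, 3 and 6 h, whose highest value was 1.93 CPM. The ratio of the summed 24 h counts to 0 h was 33.9 in WT (95% counting interval 18.2 to 71.4) and 26.5 in Aim2-/- cells (16.4 to 46.0). At 6 h it was 3.34 (1.62 to 7.55) and 4.65 (2.74 to 8.35). Fitted with no filter on low counts, the log2 fold change at 24 h was 4.999 in WT (adjusted p = 5.91e-15) and 4.66 in Aim2-/- cells (adjusted p = 9.31e-15), and at 6 h 1.72 (adjusted p = 0.0121) and 2.13 (adjusted p = 0.00018). With the filter the values were 5.04 and 4.70 at 24 h and 1.71 and 2.18 at 6 h. With the filter, the WT call at 6 h was lost without any single WT mouse, with adjusted p = 0.0552 without mouse 1, 0.14 without mouse 3 and 0.0508 without mouse 4. At 3 h the values were 1.17 (adjusted p = 0.141) and 0.82 (adjusted p = 0.271). The 4 dendritic cell markers Itgax, Xcr1, Clec9a and Siglech summed to 1.44 to 4.11 CPM in WT and 3.22 to 15.4 CPM in Aim2-/- libraries. At 24 h Clec9a was at 0 in the WT libraries and Xcr1 at 0 in the Aim2-/- libraries.

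Atf3, a stress-inducible bZIP gene that also dimerizes with Jun proteins, rose early and stayed up. It stood at 24.65, 29.4 and 40.3 CPM in WT mice at 0 h, at 110.1, 147.6 and 128.1 CPM at 3 h, at 106.0, 148.8 and 172.7 CPM at 6 h, and at 92.8, 122.3 and 144.9 CPM at 24 h. The Aim2-/- mice stood at 50.2, 28.2 and 38.9 CPM, at 64.8, 89.1 and 108.0 CPM, at 67.3, 102.8 and 99.7 CPM, and at 91.8, 120.7 and 119.1 CPM. Every stimulated library lay above every 0 h library, the 3 later times overlapped within a genotype, and mouse 1 was the lowest of its genotype at each of them. Its log2 fold change in WT cells was 2.03 ± 0.25 at 3 h (adjusted p = 2.77e-06), 2.18 at 6 h (adjusted p = 3.3e-07) and 1.93 at 24 h (adjusted p = 6.2e-07). For Aim2-/- cells it was 1.16 ± 0.25 at 3 h (adjusted p = 0.00115), 1.20 at 6 h (adjusted p = 0.000354) and 1.5 at 24 h (adjusted p = 1.65e-05).

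The steps between the stimulated times separate early from late movers. From 3 to 6 h in WT cells 5 of 10 genes were called (25.7% of all genes), 1 higher (14.2%) and 4 lower (11.5%). Fosl1 rose by log2 2.34 (adjusted p = 2.58e-05), while Fos, Fosb, Fosl2 and Junb fell by 0.48, 1.53, 0.94 and 0.43 on the log2 scale (adjusted p = 0.0109, 1.74e-05, 4.65e-05 and 0.0138). Without the mouse labelled WT 1 the values of Fos and Junb were -0.34 and -0.30 (adjusted p = 0.113 and 0.0677), which left 3 calls, and without WT mouse 3 that of Junb was -0.48 (adjusted p = 0.0676). The same step in Aim2-/- cells gave 6 calls (23.3%), 3 higher (13.4%) and 3 lower (9.89%). Fosl1 rose by 2.10 (adjusted p = 0.000125), Batf by 0.52 (adjusted p = 0.00512) and Batf3 by 1.36 (adjusted p = 0.0366), and Fos, Fosb and Fosl2 fell. Batf3 had 18, 6 and 9 counts in Aim2-/- mice 1, 2 and 4 at 3 h and passed the filter through later libraries. Its call at this step is in the counts but is not read as a result. In WT cells Batf and Batf3 did not pass the test at this step (log2 -0.12 and 0.54, adjusted p = 0.534 and 0.491). The Batf3 call in Aim2-/- cells was lost on leaving out WT mouse 3, WT mouse 4, Aim2-/- mouse 2 or Aim2-/- mouse 4, with adjusted p from 0.0661 to 0.139, and that of Batf without Aim2-/- mouse 4 (0.49, adjusted p = 0.066). With each mouse as a block the same step also called Jun at -0.34 (adjusted p = 0.0407) and Junb at -0.28 (adjusted p = 0.0324) in Aim2-/- cells. From 6 to 24 h 8 genes were called in each genotype (57.6% of all genes in WT and 54.3% in Aim2-/- cells). Among them 3 were higher (29.6% and 27.4%) and 5 lower (28% and 27%). The 5 that fell were Fos, Fosb, Fosl2, Jun and Junb, with log2 fold changes from -3.51 for Fosl2 to -0.45 for Junb in WT cells (the latter -0.40, adjusted p = 0.0612, without WT mouse 3), and the 3 that rose were Jund at 0.65 (adjusted p = 0.00042), Batf at 0.67 (adjusted p = 0.000128) and Batf3 at 3.32 (adjusted p = 2.64e-06). The rises of Jund, Batf and Batf3 in Aim2-/- cells were 0.46, 0.33 and 2.52 (adjusted p = 0.00779, 0.0288 and 3.98e-05). The Batf call there was lost without Aim2-/- mouse 1 (0.23, adjusted p = 0.225) or mouse 4 (0.35, adjusted p = 0.103), and the Jund call without mouse 4 (0.38, adjusted p = 0.083). Between 6 and 24 h Atf3 gave -0.25 in WT (adjusted p = 0.387) and 0.30 in Aim2-/- cells (adjusted p = 0.307).

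Levels of different genes were set side by side per kilobase of exon (CPM per kb). At 0 h in WT cells Junb led with 364 CPM per kb, followed by Jund (133), Fosl2 (123), Fos (35.9), Jun (30.4), Batf (27.4), Fosb (18.5), Atf3 (14.6), Fosl1 (0.248) and Batf3 (0.106). In that order the libraries of Jund and Fosl2, Fos and Jun, Jun and Batf, Fosb and Atf3, and Fosl1 and Batf3 overlapped, and the other neighbours did not. At 24 h the order was Jund (260), Junb (113), Batf (71.0), Atf3 (55.7), Fosl1 (11.1), Jun (10), Batf3 (3.60), Fos (3.25), Fosl2 (2.82) and Fosb (0.245 CPM per kb), where Fosl1 and Jun, Batf3 and Fos, and Fos and Fosl2 overlapped. The top 3 in Aim2-/- cells were Junb (518), Fosl2 (161) and Jund (152) at 0 h and Jund (252), Junb (117) and Batf (96.9) at 24 h. The sum over the 10 genes went from 746 ± 105 at 0 h to 532 ± 34.7 CPM per kb at 24 h in WT cells, and from 988 ± 101 to 550.0 ± 55 in Aim2-/- cells (SD, n = 3). The makeup of that sum changed more than its size. Junb went from 48.5% ± 2.87 to 21.4% ± 0.765 of the sum in WT cells, Jund from 17.9% ± 1.56 to 49.0% ± 1.21, Fosl2 from 16.4% ± 0.524 to 0.531% ± 0.0329, and Batf from 3.76% ± 1.07 to 13.4% ± 0.447 (SD, n = 3). These shares are of mRNA only and carry no test.

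**Figure D3:**
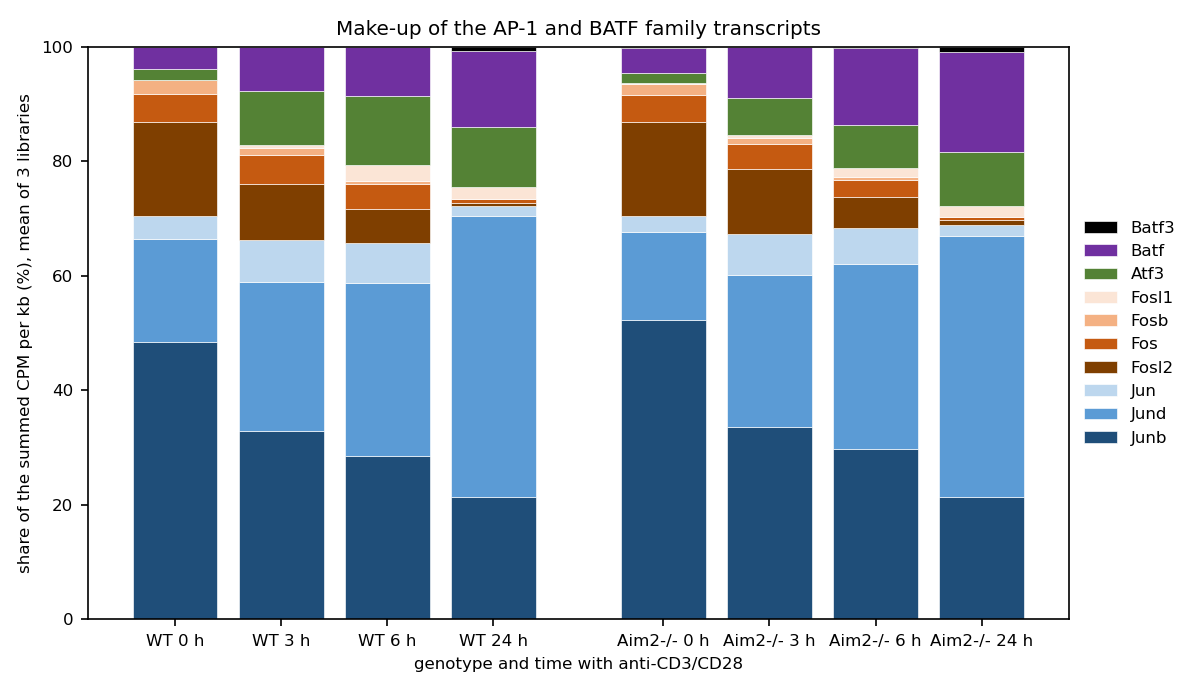
Mean percent of the summed level (CPM per kb) of the 10 genes that each gene made up in the 8 groups, stacked to 100 percent, with 3 mice per group. Junb and Fosl2 shrink and Jund, Batf and Atf3 widen from 0 to 24 h in both genotypes.

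The comparison of Aim2-/- with WT cells at each time bears on whether cells without this cytosolic DNA sensor hold other levels of the family. Batf was called higher in Aim2-/- than in WT cells at 0 and at 6 h. At 0 h 2 of 10 genes were called (5.23% of all genes), of which 2 were higher, Batf and Junb (3.24%), and 0 lower (1.99%). At 3 h 0 genes were called (0.294% of all genes, 0.254% higher and 0.0392% lower). At 6 h 2 were called (15.8%), Batf higher (8.78%) and Fos lower (7.01%). At 24 h 1 was called (0.666%), Fosl2, higher (0.659%), and 0 were lower (0.00653%). At 3 h the unadjusted p was under 0.05 for 2 of the 10 genes and 15.3% of all genes, and DESeq2 and limma-voom also called 0. The median absolute log2 difference of the 10 genes was 0.371, 0.231, 0.311 and 0.158 at 0, 3, 6 and 24 h, against 0.23, 0.183, 0.29 and 0.212 over all genes. Without WT 1 the calls over all genes went from 802, 45, 2421 and 102 to 904, 425, 1792 and 165 at these times, and the shares above move with them. Each mouse gave all 4 times, and the 4 comparisons thus share their animals.

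**Figure D4:**
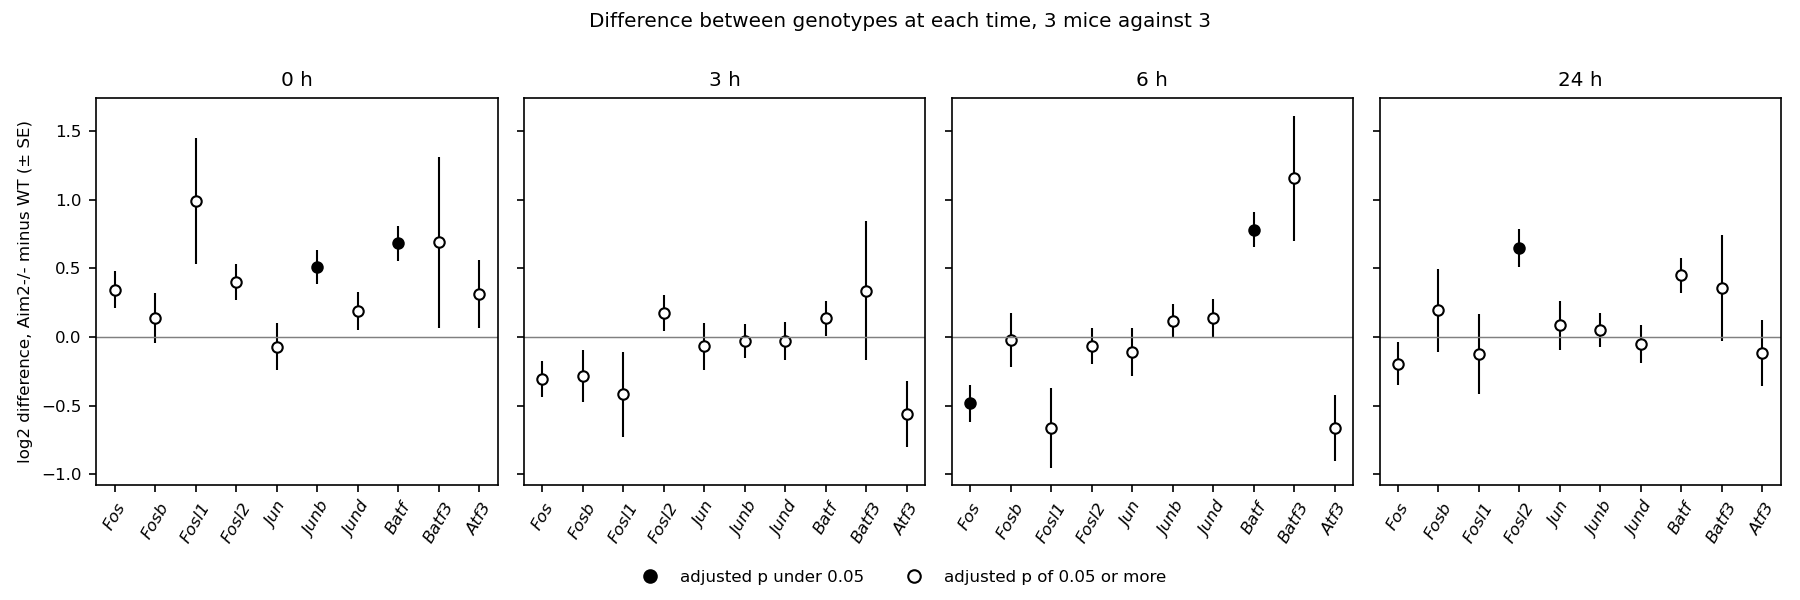
Log2 difference of Aim2-/- from WT cells at 0, 3, 6 and 24 h for each of the 10 genes, with bars of 1 SE; filled symbols have an adjusted p under 0.05. Batf lies above 0 at every time, closest to it at 3 h (0.14), and Fos changes from 0.34 at 0 h to -0.48 at 6 h.

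Batf in the libraries given above did not overlap between the genotypes at 0, 6 and 24 h, and the 3 Aim2-/- mice were higher. The log2 difference was 0.68 ± 0.13 at 0 h (adjusted p = 0.00767), 0.78 ± 0.13 at 6 h (adjusted p = 0.00369), that is 1.72-fold, and 0.45 ± 0.13 at 24 h (adjusted p = 0.0795). At 3 h the groups overlapped through WT 1 alone, with a log2 difference of 0.14 (adjusted p = 0.626). WT 1 stood at 81.1 CPM there, and the other WT mice at 56.5 and 67.9 CPM, below the 74.3 to 76.1 CPM of the Aim2-/- mice. None of the 15 alternatives called this 3 h difference, with log2 differences from -0.0119 to 0.274. Without the mouse labelled WT 1, which had the highest WT level at 0, 3 and 6 h, the difference at 0, 6 and 24 h was 0.81 (adjusted p = 0.00145), 0.86 (adjusted p = 0.00103) and 0.44 (adjusted p = 0.08). The 24 h difference was called in 4 of 15 alternatives, among them the fit without Aim2-/- mouse 2 (0.54, adjusted p = 0.0124). The 6 h call held in all 15 alternatives, with log2 differences from 0.646 to 0.863 and adjusted p from 4.3e-06 to 0.0433. The 0 h call held in 11 of 15 and was lost without WT mouse 3 (adjusted p = 0.0653), WT mouse 4 (0.089), Aim2-/- mouse 1 (0.0554) or Aim2-/- mouse 4 (0.0525). Of the summed family level per kb, Batf made up 6.59% to 11.3% in WT and 13.1% to 13.9% in Aim2-/- libraries at 6 h.

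Junb was called higher in Aim2-/- cells at 0 h and Fosl2 at 24 h. For Junb the 0 h libraries did not overlap, with 970.0 CPM in the highest WT and 1082 CPM in the lowest Aim2-/- mouse, and the log2 difference was 0.51 (SE 0.12, adjusted p = 0.026), or 0.37 without WT 1 (adjusted p = 0.0428). This call held in 10 of 15 alternatives. It was lost with only the libraries compared, and without WT mouse 3, WT mouse 4, Aim2-/- mouse 1 or Aim2-/- mouse 4 the adjusted p was 0.149, 0.0688, 0.171 and 0.0803. For Fosl2 the 0 h libraries did not overlap either, with a log2 difference of 0.40 (adjusted p = 0.0746) that was 0.28 without WT 1 (adjusted p = 0.249). At 24 h Fosl2 was low in all mice but higher in the 3 Aim2-/- mice without overlap, with a log2 difference of 0.65 (SE 0.14, adjusted p = 0.0356), or 1.565-fold, and 0.65 without WT 1 (adjusted p = 0.046). That call held in 8 of 15 alternatives. It was lost with limma-voom, the method named by the study, with an estimated correlation within a mouse and with only the libraries compared, and without WT mouse 3, WT mouse 4, Aim2-/- mouse 1 or Aim2-/- mouse 4 its adjusted p was 0.427, 0.0878, 0.369 and 0.0904.

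Fos was called lower in Aim2-/- cells at 6 h, and Fosl1 and Atf3 did not pass the test there in the main fit. For Fos the log2 difference was 0.34 at 0 h (adjusted p = 0.12; 0.27 and 0.222 without WT 1), where the Aim2-/- mice lay above the WT mice without overlap, -0.31 at 3 h (adjusted p = 0.278; -0.31 and 0.198 without WT 1), where they lay below them without overlap, and -0.48 ± 0.13 at 6 h (adjusted p = 0.0247). At 6 h the groups overlapped through WT 1, with 43.8 CPM against up to 44.2 CPM in Aim2-/- mice, and the value without WT 1 was -0.63 (adjusted p = 0.0111). The call held in 10 of 15 alternatives. It was lost with only the libraries compared, and without WT mouse 3, WT mouse 4, Aim2-/- mouse 1 or Aim2-/- mouse 4 the adjusted p was 0.0874, 0.0872, 0.119 and 0.105. Atf3 at 6 h did not overlap between the genotypes, at a log2 difference of -0.66 (SE 0.24, adjusted p = 0.0619) that was called at -0.84 without WT 1 (adjusted p = 0.034) and at -0.78 without Aim2-/- mouse 2 (adjusted p = 0.0461). At 3 h Atf3 gave -0.56 (adjusted p = 0.273), or -0.66 without WT 1 (adjusted p = 0.133). Fosl1 at 6 h gave -0.66 (adjusted p = 0.116) without overlap, or -0.78 without WT 1 (adjusted p = 0.103), and Batf3 at 6 h gave 1.16 (adjusted p = 0.0818) without overlap, or 0.95 without WT 1 (adjusted p = 0.213). Of the 15 alternatives, 7 called Atf3 at 6 h, 4 called Fosl1 and 1 called Batf3. The mouse labelled WT 1 was the lowest WT mouse for 6, 4, 9 and 4 of the 10 genes at 0, 3, 6 and 24 h, and at 6 h it was the highest for Batf alone.

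Markers of other cells differed between the genotypes in the same libraries. Transcripts of basophils and mast cells (Mcpt8, Cpa3 and Prss34) summed to 5.40 to 14.2 CPM in WT and 39.1 to 157 CPM in Aim2-/- libraries, and all 3 genes were called higher at each of the 4 times. Myeloid markers (Lyz2, Csf1r, Itgam, S100a8 and S100a9) summed to 9.20 to 48.8 CPM and 22.1 to 332 CPM, with 1 of 5 called at 0 h. Of the B cell genes, Cd79a lay between 0.913 and 1.75 CPM in WT and between 3.25 and 10.3 CPM in Aim2-/- libraries at 0 h (log2 2.24, adjusted p = 0.0206) and was called at 6 h too (2.39, adjusted p = 0.0101). Cd79b was called at 0 h (2.17, adjusted p = 0.0275) and at 6 h (1.69, adjusted p = 0.0338), and Ms4a1 at neither time (2.84 and 2.20, adjusted p = 0.279 and 0.219). Erythroid transcripts (Hba-a1, Hbb-bs and Hbb-bt) summed to 5.89 to 60.6 CPM and 10.5 to 402 CPM, and over all libraries CD8 T cell markers to 7.74 to 15.6 CPM and NK cell markers to 0.705 to 16.5 CPM. None of these markers was at 0 in a whole group, and their part in the differences of Batf, Junb, Fosl2 and Fos was not tested. Of 10 genes known to rise with isolation and handling of cells, 1 was called at 0 h, Ier3, at 2.40, 2.64 and 3.40 CPM in WT and 9.10, 6.50 and 8.12 CPM in Aim2-/- mice (log2 1.49, adjusted p = 0.0101). Among the other 9, the log2 difference at 0 h was 0.79 for Hspa1a, 0.85 for Hspa1b, 0.50 for Dusp1 (adjusted p = 0.0546), 0.21 for Ier2, 0.20 for Zfp36, 0.19 for Nr4a1, 0.09 for Btg2, -0.04 for Dnajb1 and -0.05 for Egr1, all short of the threshold. At 6 h 7 of the 10 were called, 4 higher and 3 lower (15.8%, 8.78% and 7.01% of all genes), and at 3 and 24 h none was.

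Whether the response to stimulation itself differed between the genotypes was tested as the interaction, the change from 0 h in Aim2-/- cells minus that in WT cells. edgeR called 0 of the 10 genes at 3, 6 and 24 h (0%, 0.0261% and 0% of all genes), with unadjusted p under 0.05 for 5, 5 and 2 of them, against 4.26%, 13.2% and 11.9% of all genes. The median absolute log2 interaction of the 10 genes was 0.48, 0.428 and 0.29, against 0.173, 0.261 and 0.255 over all genes, and both genotypes' 0 h libraries enter all 3. DESeq2 called 0, 2 and 0, and limma-voom 0 at each time, and their shares over all genes are not given here. The log2 interaction at 6 h was -0.83 for Fos (SE 0.19, adjusted p = 0.0761), -1.65 for Fosl1 (SE 0.54, adjusted p = 0.192), -0.98 for Atf3 (SE 0.35, adjusted p = 0.22) and 0.10 for Batf (SE 0.18, adjusted p = 0.875). Without WT 1 it was -0.90 for Fos (adjusted p = 0.0722), -2.37 for Fosl1 (adjusted p = 0.161), -1.01 for Atf3 (adjusted p = 0.274) and 0.06 for Batf (adjusted p = 0.943). For Fos it was -0.65 at 3 h (adjusted p = 0.947) and -0.54 at 24 h (adjusted p = 0.293), and for Batf at 24 h -0.23 (adjusted p = 0.636). Without WT 1 these were -0.58, -0.54 and -0.37 (adjusted p = 1, 0.281 and 0.383). The interaction at 3 h was -0.55 for Batf (SE 0.18, unadjusted p = 0.00628) and -0.54 for Junb (SE 0.17, unadjusted p = 0.00573) by edgeR. For Fosl1 and Atf3 it was -1.41 and -0.88 (SE 0.56 and 0.35, unadjusted p = 0.0196 each). No alternative called any of these 4 genes at 3 h, and the values of Batf ran from -0.619 to -0.474. At 6 h the interaction was called in 5 of 15 alternatives for Fos, in 2 for Atf3 and in 2 for Fosl1. With each mouse as a block, Fos and Atf3 were called at 6 h, at -0.82 (adjusted p = 0.00984) and -1.01 (adjusted p = 0.0285). Without Aim2-/- mouse 2, Fos was called at -0.998 (adjusted p = 0.0499).

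Genes around the family moved as well, and are given as lists from general knowledge with their counts in WT cells at 24 h against 0 h, where 36.6% of all genes were called higher and 34.8% lower and their median log2 fold change was -0.0127. Of 13 related bZIP factors 3 rose and 7 fell, with a median of -0.622. Atf4 rose by 0.49 (adjusted p = 0.00178) and Mafg by 0.37 (adjusted p = 0.00874), Batf2 went from 0 to 1.28 CPM, at least 8.25-fold higher against the floor of 3 counts in each 0 h library, and Jdp2, Maf and Bach1 fell by 2.81, 2.62 and 2.08 on the log2 scale (adjusted p = 8.99e-06, 1.02e-05 and 1.84e-11). Of 15 kinases and serum response factors upstream of AP-1, 3 rose and 6 fell, with a median of -0.0848. Srf, which acts at the Fos promoter, rose from 46.4 to 160.6 CPM (log2 1.79, adjusted p = 1.29e-11), Map2k2 and Map2k1 rose by 0.41 and 0.20 (adjusted p = 0.000105 and 0.0246), and Elk4, Rasgrp1 and Mapk9 fell by 1.10, 1.07 and 0.79 (adjusted p = 5.97e-08, 3.65e-05 and 8.11e-08). Of 5 partners at composite sites, both IRF genes rose and the 3 NFAT genes fell, Irf8 from 23.3 to 721 CPM (log2 4.95, adjusted p = 4.04e-12), Irf4 from 250.9 to 1088 CPM (log2 2.12, adjusted p = 8.21e-09), and Nfatc3, Nfatc1 and Nfatc2 by -1.35, -0.59 and -0.43 on the log2 scale (adjusted p = 1.11e-08, 0.00172 and 0.00544). Of 13 genes described as AP-1, NFAT or BATF targets in T cells, 8 rose and 5 fell, with a median of 2.31. Il2 rose from 1.59 to 145.1 CPM (log2 6.51, adjusted p = 7.99e-13), Il13 rose from 0.903 to 22.7 CPM (log2 4.65, adjusted p = 5.8e-06), and Il3 went from 0 to 16.4 CPM, at least 106-fold higher against the same floor. Batf2 and Il3, at 0 CPM in WT cells at 0 h, passed the filter on low counts only through other libraries. Their rises are in the counts of their lists but are not read as results of the test. Fasl, Ctla4 and Il21 fell by 2.00, 2.00 and 1.68 on the log2 scale (adjusted p = 2.01e-09, 1.27e-07 and 0.00217). Of the 10 handling genes 1 rose and 6 fell, with a median of -2.07. In Aim2-/- cells the rises and falls were 3 and 7, 2 and 5, 2 and 3, 8 and 4, and 1 and 8 for these lists. Over all genes, 36.8% were called higher and 33.5% lower in Aim2-/- cells. Between the genotypes, no list had a call at 3 or 24 h (0.294% and 0.666% of all genes). At 0 h, where 5.23% of all genes were called, Irf8 was called apart from Ier3, at 0.95 (adjusted p = 0.0397). At 6 h the calls were 1 higher and 5 lower of 13 bZIP factors, 1 higher and 2 lower of 15 kinases, 2 lower of 5 partners and 2 lower of 13 targets. Over all genes, 8.78% were called higher and 7.01% lower at 6 h.

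As a description over the 24 libraries, which share mice and times, the members fell into a declining and a rising set. Log2 CPM of Fosl2 correlated with Fosb at r = 0.987 and with Fos at r = 0.974, Fosl1 with Atf3 at 0.865, Jund with Batf3 at 0.913, and Batf with Batf3 at 0.811, while Fos and Batf3 ran opposite at -0.945 and Jun with Atf3 gave -0.0822. Among 12654 other protein-coding genes, the pair most like each member was Itpkc (0.987) and Zswim4 (0.984) for Fos, Lmbrd1 (0.988) and Ppp1r15a (0.987) for Fosb, Tnfaip3 (0.993) and Rrad (0.992) for Fosl2, Ms4a4b (0.983) and Ubl3 (0.974) for Jun, and Il21r (0.984) and Man1b1 (0.983) for Junb. For the genes that ended higher it was Utf1 and St6galnac4 (0.974) for Fosl1, Apon (0.933) and Otub1 (0.931) for Jund, Pcgf2 (0.952) and Mlkl (0.949) for Batf, Anapc11 (0.973) and Arl6ip4 (0.972) for Batf3, and Myc (0.948) and Lif (0.946) for Atf3. In position, Fos (chr12:85473890-85477273) and Batf (chr12:85686669-85709087) lay 209 kb apart on GRCm38 and moved in opposite directions, and Batf3 (chr1:191097847-191108945) and Atf3 (chr1:191170296-191218039) lay 61.4 kb apart and 17.6 and 17.7 Mb from Aim2.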

How the data were processed

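The study's methods do not describe this time course separately and were taken to apply to it. Single-end mRNA reads of 24 libraries were aligned by the authors with STAR to GRCm38 with Ensembl release 94, and the deposited values are raw read counts per gene, without normalization; per the labels, edgeR and DESeq2 were also used, with no version. Whether strand was used in counting is not stated. Gene symbols and positions came from an annotation of the same build, in which 54409 of 54446 identifiers were found. Libraries were grouped by the labels into 8 groups of 3. The main model was edgeR 4.0.16 (R 4.3.3): quasi-likelihood F test, two-sided, 1 mean per group, TMM factors, filterByExpr with a minimum count of 10 in at least 3 libraries, 17 comparisons, Benjamini-Hochberg adjustment within each over 15325 genes. Its common dispersion was 0.0346. SE is the log2 fold change divided by the root of F, and a prior count of 2 went into log2 CPM. The study's methods describe limma-voom, which served as an alternative (limma 3.58.1), as did DESeq2 1.42.0.

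On data simulated for WT 24 h against 0 h, 16, 94, 100 and 100% of 50 genes each changed 1.5-, 2-, 4- and 8-fold were recovered, with 8 false calls among 15325 genes. The simulated libraries were independent, every gene had the common dispersion, and only genes with a mean count above 50 were changed. These rates therefore do not carry over to genes with few counts or to libraries that share a mouse. Totals of 19715161 to 21627018 counts set a floor of 3 counts near 0.147 CPM before scaling. Intervals and floors cover counting error only. The labels carry each genotype and number at all 4 times, and each such number was taken as 1 mouse. The 36 pairs of libraries from 1 mouse correlated at r = 0.139 to 0.567 in their deviations from group means, while 72 pairs of unlike mice within a genotype gave -0.432 to 0.0742, so fits with each mouse as a block are given where they change a call. The members, gene lists and comparisons were chosen with earlier results of these data known. Named are all 10 members, Aim2, up to 3 rises and 3 falls per list at 24 h in WT cells with at least 1 CPM in the higher group, the handling genes at 0 h, and the 2 genes most like each member; Irf8 between the genotypes at 0 h was named after its value was seen. A sum over B cell markers is not reported here.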

Additional observations from a re-analysis of the deposited data

Results flagged for a closer look

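Among the 10 genes, 2 were flagged because the change from 0 to 6 h differed between the genotypes by a test of that difference, in the fit with each mouse as a block. For Fos the difference, Aim2-/- minus WT, was -0.82 on the log2 scale (adjusted p = 0.00984), and for Atf3 it was -1.01 (adjusted p = 0.0285). In the fit without the block the values were -0.83 and -0.98 (adjusted p = 0.0761 and 0.22).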

How the results depend on the processing

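For the 17 counts of called members, 223 of 255 values under the 15 alternatives lay within 1.5 times the main count and 32 did not. The 10 calls at 24 h against 0 h held throughout in both genotypes. Leaving out 1 mouse gave 6 to 7 and 7 to 8 calls at 3 and 6 h against 0 h in WT and 6 to 7 and 8 in Aim2-/- cells. It gave 3 to 5 from 3 to 6 h and 7 to 8 from 6 to 24 h in WT, and 4 to 7 and 6 to 8 in Aim2-/- cells. Between the genotypes it gave 0 to 2 at 0 h, 1 to 3 at 6 h and 0 to 2 at 24 h, and for the 6 h interaction 0 to 1.

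At 0 h between the genotypes, a fit of only the libraries compared gave 1 call. At 3 h, no filter gave 1. At 6 h, DESeq2, no filter, the mouse number as a replicate block and an estimated correlation within a mouse each gave 4, and only the libraries compared gave 1. At 24 h, DESeq2, no filter and the mouse-number block gave 2, and limma-voom, only the libraries compared and the estimated correlation gave 0. For the 6 h interaction, DESeq2 gave 2, no filter 3, the block on each mouse 2 and the estimated correlation 1. The causes of these shifts were not tested. Calls over all genes are given here only for the mouse-number block and for leaving out WT 1. The counts of the other fits are therefore not read as results about the family. Mouse numbers do not pair mice of different genotypes; as a block they gave 3, 0, 4 and 2 calls among the members at 0, 3, 6 and 24 h, and 3613, 2324, 5516 and 3235 over all genes. Leaving out WT 1 gave 904, 425, 1792 and 165 over all genes. The block on each mouse changed no other call than those given beside the results. Library totals without scaling factors moved the median gene by 0.107 (WT) and 0.115 (Aim2-/-) on the log2 scale at 3 h and by 0.12 at 6 h in Aim2-/- cells. Of 170 member differences, 26 changed sign in some alternative, and none of these was called (adjusted p at least 0.499). With 2 to 26 counts at 0 h, Batf3 and Fosl1 are the genes that depth limits.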
